A study of Mus musculus with 12 samples.

Results

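The brush border is the carpet of microvilli on the apical face of an intestinal epithelial cell. Each microvillus holds a parallel bundle of actin filaments, which villin, espin and plastin bundle, which ezrin and myosin 1a tie to the membrane, and at whose tip sits EPS8. Neighbouring microvilli are held together by a complex of the protocadherins CDHR2 and CDHR5 with the scaffold USH1C, called harmonin, and the motor myosin 7b. The 10 genes *Vil1*, *Espn*, *Pls1*, *Eps8*, *Ezr*, *Myo1a*, *Cdhr2*, *Cdhr5*, *Ush1c* and *Myo7b* encode these proteins. They were taken by symbol from 3 tables of 47632 genes each, and all 10 were found in each table.

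The RNA-seq data come from epithelial cells that were detached with EDTA from the colon of C57/BL6 mice. All animals carried floxed alleles of *Tfeb*, a transcription factor best known for lysosome and autophagy genes. *Tfeb* ΔIEC animals also carried Cre recombinase under the promoter of villin, that is of *Vil1*, and *Tfeb* flox/flox animals, which the labels call WT, did not. There were 12 samples in 6 groups, with 2 animals of each genotype before treatment (Day 0), on Day 4 of dextran sulfate sodium (DSS), an agent that injures the colonic epithelium when given in drinking water, and on Day 11, after the return to plain water. The labels give a DSS concentration of 2.5%, the methods of the study a lower one. Animals were 10 or 12 weeks old on Day 0, 12 weeks old on Day 4 and 10 weeks old on Day 11 by the labels. The Cre acts wherever the villin promoter is active, in small intestine as well as colon, and the cells were not sorted by marker.

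Each table gives 1 value per gene and genotype, in which both animals are combined. The values are FPKM, fragments scaled to transcript length and to sequencing depth, so that levels of different genes can be set side by side. The spread between animals and the depth behind the values are therefore unknown, and no genotype difference below was tested. Differences are given as log2 fold changes of FPKM + 1, *Tfeb* ΔIEC against *Tfeb* flox/flox, and 2-fold, a log2 fold change of 1 either way, is used as a mark of size among genes with at least 1 FPKM in either genotype. *Tfeb* itself was listed at 0.901 FPKM in *Tfeb* flox/flox against 0.185 in *Tfeb* ΔIEC on Day 0, at 1.08 and 0 on Day 4, and at 1.18 and 0 on Day 11.

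The 10 general epithelial markers differed widely in level. *Epcam*, an adhesion molecule of epithelial cells, was between 1109 and 1803 FPKM in the 4 groups of Day 0 and Day 4. In the same groups *Cdx1* was between 6.98 and 25.9 FPKM and *Cdx2* between 8.63 and 20.4. Of 21 immune cell markers, *Cd4*, *Cd68*, *Adgre1* and *S100a9* were listed at 0 in these 4 groups, and the markers summed to 29.2 FPKM in *Tfeb* flox/flox against 10.4 in *Tfeb* ΔIEC on Day 0, to 25.0 and 34.5 on Day 4, and to 24.0 and 35.1 on Day 11. Of 14 stromal markers, *Des*, *Lum*, *Pdgfra* and *Col1a2* were listed at 0 on Day 4, and the list summed to 6.08 and 3.26 FPKM. A listed 0 does not show that a gene was silent, since *Med6* and *Abcf3*, genes that most cells use, were also listed at 0 in *Tfeb* flox/flox on Day 4.

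All 10 brush border genes were detected, with none of the 60 values at 0. In untreated *Tfeb* flox/flox animals they spanned 22.7-fold, from 5.34 FPKM for *Myo7b* to 121 FPKM for *Cdhr5*, with a median of 29.5 FPKM. Their places among the genes above 0 in that group ran from the 69.9th to the 95.6th percentile. *Cdhr5* lay above the 90th percentile in every group, the only gene of the 10 to do so, and 3 genes, *Espn*, *Eps8* and *Myo7b*, lay above it in none. On Day 0 the values of the genotypes lay nearer to each other than on the later days. *Tfeb* ΔIEC animals had the higher value for 8 genes and the lower for 2, with a median log2 fold change of 0.48 beside 0.06 over all 9993 genes at the filter, and 1 gene, *Myo1a*, lay past 2-fold on the higher side, as did 13.5% of all genes. None lay past it on the lower side, against 16.1% of all genes.

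On Day 4 and Day 11 the brush border genes stood mostly well above the control level in *Tfeb* ΔIEC animals. On Day 4, 8 of 10 were past 2-fold higher, beside 25.6% of the 9371 genes at the filter, and 1 was past 2-fold lower, beside 26.1%. On Day 11 it was again 8 and 1, beside 26.1% and 25.7% of 9365 genes. When each genotype was divided by the sum of its FPKM, 9 of the 10 genes were past 2-fold higher and none lower on both days, and the shares of all genes shifted to 41.6% higher and 16.1% lower on Day 4 and to 42.1% and 15.8% on Day 11. Median log2 fold changes of the 10 genes were 1.82 and 1.67, and those of all genes 0.06 and 0.08. Summed over the 10 genes, the FPKM of *Tfeb* ΔIEC was 1.28 times that of *Tfeb* flox/flox on Day 0, 4.47 times on Day 4 and 4.34 times on Day 11.

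**Figure D1:**
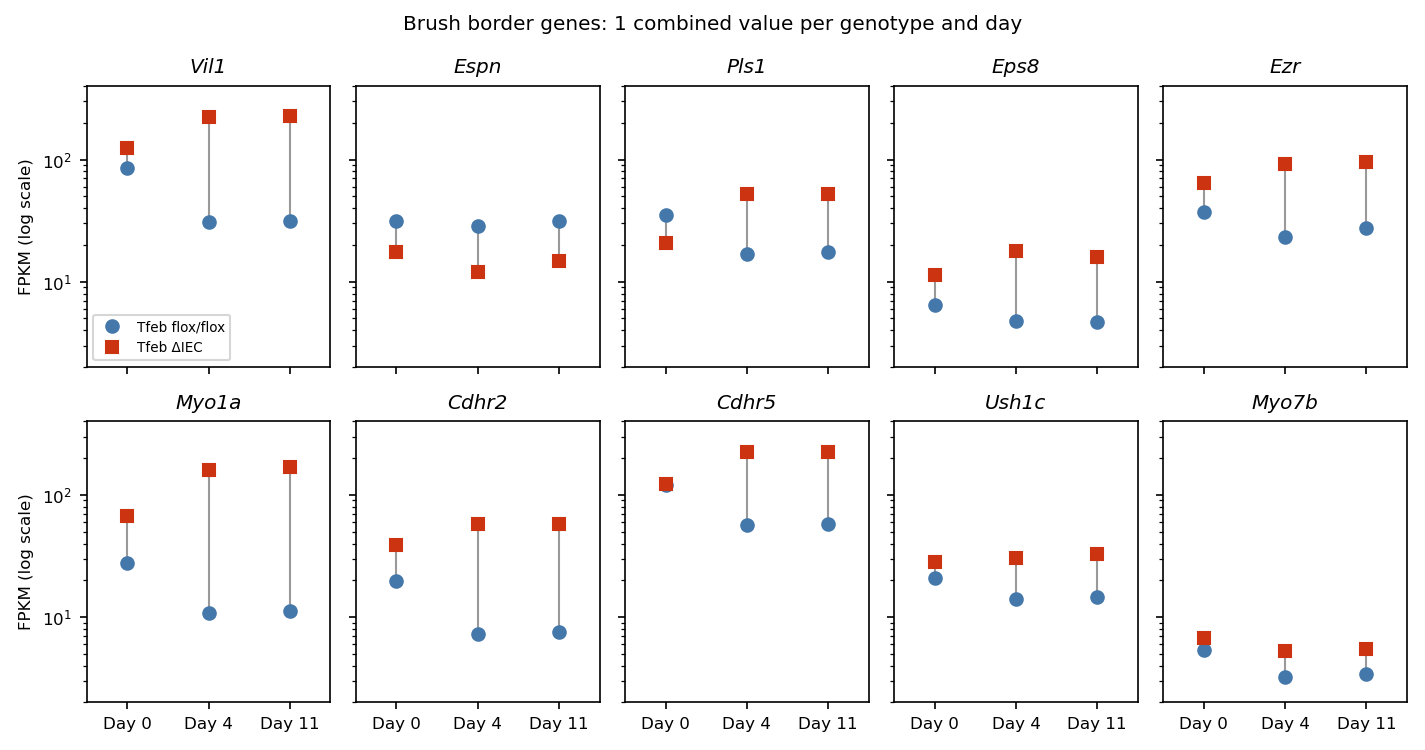
FPKM on a log scale of the 10 brush border genes in *Tfeb* flox/flox (blue circles) and *Tfeb* ΔIEC (red squares) animals on Day 0, Day 4 and Day 11, each point being 1 value in which 2 animals are combined, with a grey line joining the genotypes of a day. Red squares lie above blue circles on Day 4 and Day 11 for all genes except *Espn*, whose order is the opposite on all 3 days.

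Set beside their own Day 0, the genotypes lay on opposite sides for most of the genes. In *Tfeb* flox/flox animals, each of the 10 genes had a lower FPKM on Day 4 than on Day 0, at between 0.358 and 0.920 times its untreated value with a median of 0.542, and a lower percentile among the genes of its group. Of all 9617 genes with at least 1 FPKM on either of these days in the controls, 56.1% had a lower FPKM and 59.6% a lower percentile on Day 4, and the median ratio was 0.868. In *Tfeb* ΔIEC animals 8 genes had a higher FPKM on Day 4 than on Day 0, and *Espn* and *Myo7b* a lower one, with a median ratio of 1.53. By percentile 7 were higher and 3 lower, *Ush1c* being at 90.2 on Day 0 and 90.1 on Day 4. Of all genes in *Tfeb* ΔIEC, chosen likewise, 38.8% had a higher FPKM and 43.5% a higher percentile on Day 4, with a median ratio of 0.842. The sum over the 10 genes thus went from 390 to 196 FPKM in the controls and from 500 to 876 FPKM in *Tfeb* ΔIEC animals. The days were normalised separately by the authors, so these ratios are set side by side and are not called. Over all genes, FPKM on Day 4 summed to 1464720 in *Tfeb* flox/flox against 820344 in *Tfeb* ΔIEC, and on Day 0 to 975316 and 973878.

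Day 11 repeated Day 4 closely. The FPKM of the 10 genes on Day 11 was between 0.973 and 1.16 times that of Day 4 in *Tfeb* flox/flox animals and between 0.883 and 1.24 times in *Tfeb* ΔIEC animals. Among the 11746 genes above 0 on both days in *Tfeb* flox/flox, 14.3% had exactly the same FPKM on Day 4 and Day 11, as did 10.2% of 12826 genes in *Tfeb* ΔIEC, while no gene had the same value on Day 0 and Day 4. None of the 10 brush border genes had an identical value on these days. The labels give the samples of the days as different animals, and the origin of the identical values was not tested. Day 11 is therefore given as values and not as a second instance of Day 4.

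The core bundle holds the 3 actin-bundling proteins, and they differed in direction. *Vil1* (chr1:74409376-74435559, plus strand, mm10) encodes villin, which bundles and severs actin filaments. It was at 85.4 FPKM in *Tfeb* flox/flox against 123 FPKM in *Tfeb* ΔIEC on Day 0, at 30.6 and 224 FPKM on Day 4, and at 31.5 and 228 FPKM on Day 11. *Tfeb* ΔIEC values were thus higher on each day, by 1.44-, 7.33- and 7.24-fold. With *Tfeb* flox/flox below its own Day 0 value on Day 4 and *Tfeb* ΔIEC above it, *Vil1* was the 1359th gene by FPKM in the former and the 305th in the latter on Day 4, against the 718th and the 452nd on Day 0. *Vil1* is also the gene whose promoter drives Cre in *Tfeb* ΔIEC animals. An exon of *Usp37* on the opposite strand overlaps 49 exonic bases of *Vil1*, 1.38% of them, and *Usp37* was at most 2.94 FPKM.

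*Espn* (chr4:152120331-152152371, minus strand), the gene of the bundling protein espin, was the exception. Its FPKM stood at 31.3 in *Tfeb* flox/flox against 17.5 in *Tfeb* ΔIEC on Day 0, 28.8 and 11.9 on Day 4, and 31.4 and 14.8 on Day 11. *Espn* was lower in *Tfeb* ΔIEC on all 3 days, by 1.79-, 2.41- and 2.13-fold, and its control values lay within a narrow range while those of *Vil1* did not. *Vil1* stood at 1.06 times *Espn* in *Tfeb* flox/flox on Day 4 and at 18.8 times in *Tfeb* ΔIEC, against 2.73 and 7.06 times on Day 0. *Espn* has 14 basic transcripts in GENCODE M21, from 1142 to 4618 nt, and 3 RefSeq starts, whereas the FPKM is 1 value per gene, so that the isoforms cannot be told apart. After each genotype was divided by the sum of its FPKM, the log2 fold change of *Espn* was -0.41 on Day 4 and -0.25 on Day 11, inside 2-fold.

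*Pls1* (chr9:95752642-95845311, minus strand), which encodes plastin 1 or fimbrin, changed sides. It was at 35.1 FPKM in *Tfeb* flox/flox against 20.8 in *Tfeb* ΔIEC on Day 0, at 16.7 and 52.3 FPKM on Day 4, and at 17.6 and 52.4 FPKM on Day 11. *Tfeb* ΔIEC was 1.69-fold lower before treatment, next to *Espn* the only gene of the 10 with a lower value, and 3.12- and 2.98-fold higher on the later days. Between *Pls1* and *Espn* the levels were near 1 to 1 in both genotypes before treatment, at 1.12 and 1.19 for *Pls1* over *Espn*, and were 0.582 and 4.39 on Day 4.

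At the tip, *Eps8* (chr6:137477245-137654876, minus strand), which encodes an actin capping and bundling protein that controls microvillus length, was at 6.41 FPKM in *Tfeb* flox/flox against 11.3 in *Tfeb* ΔIEC on Day 0, at 4.80 and 17.9 on Day 4, and at 4.67 and 15.8 on Day 11. It was 1.76-, 3.74- and 3.39-fold higher in *Tfeb* ΔIEC. *Eps8* was one of the low members of the group, and its relative *Eps8l3* stood at 24.4 times its FPKM in *Tfeb* flox/flox against 7.60 times in *Tfeb* ΔIEC before treatment, and at 25.1 and 6.97 times on Day 4.

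Of the linkers between bundle and membrane, *Myo1a* had the largest genotype difference of the 10 genes on each day in the values as deposited; after the length subtraction given below, *Pls1* exceeded it in size on Day 0, at -1.12 against 0.81. *Myo1a* (chr10:127705170-127720940, plus strand) encodes the single-headed brush border myosin. It was at 27.8 FPKM in *Tfeb* flox/flox against 67.6 in *Tfeb* ΔIEC on Day 0, at 10.8 and 158 FPKM on Day 4, and at 11.2 and 168 FPKM on Day 11. The folds were 2.43, 14.7 and 15.0. *Ezr* (chr17:6738041-6782784, minus strand), which encodes the membrane linker ezrin, was at 37.3 and 63.7 FPKM on Day 0, at 23.4 and 92.1 on Day 4, and at 27.3 and 95.2 on Day 11, in *Tfeb* flox/flox and *Tfeb* ΔIEC respectively. It was 1.71-, 3.93- and 3.49-fold higher in *Tfeb* ΔIEC, so that both linkers lay on the same side on all days.

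The genes of the adhesion complex were graded. *Cdhr2* (chr13:54701461-54736662, plus strand), a protocadherin at the microvillus tip, was at 19.6 FPKM in *Tfeb* flox/flox against 38.9 in *Tfeb* ΔIEC on Day 0, at 7.23 and 57.4 on Day 4, and at 7.49 and 57.7 on Day 11. With folds of 1.98, 7.93 and 7.70, its difference was close in size to that of *Vil1* on both later days. Its partner *Cdhr5* (chr7:141269083-141276786, minus strand) was nearly equal in the genotypes on Day 0, at 121 and 122 FPKM, and was at 56.5 and 226 FPKM on Day 4 and at 57.5 and 226 FPKM on Day 11. *Cdhr5* was thus 4.0- and 3.92-fold higher in *Tfeb* ΔIEC on these days. FPKM of *Cdhr5* was 6.18 times that of *Cdhr2* in untreated controls and 3.14 times in *Tfeb* ΔIEC, and 7.81 and 3.95 times on Day 4.

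On Day 4 and Day 11 the cytoplasmic side of the complex differed less. *Ush1c* (chr7:46195350-46238503, minus strand) was at 20.8 FPKM in *Tfeb* flox/flox against 28.3 in *Tfeb* ΔIEC on Day 0, at 14.1 and 30.3 on Day 4, and at 14.6 and 33.1 on Day 11, with folds of 1.36, 2.15 and 2.26. *Myo7b*, the motor, was the lowest of the 10 genes in every group, at 5.34 and 6.73 FPKM on Day 0, 3.24 and 5.25 on Day 4, and 3.43 and 5.46 on Day 11. It stayed inside 2-fold on all days, with folds of 1.26, 1.62 and 1.59. In these bulk samples a larger share of cells that carry a brush border and more RNA per such cell cannot be told apart.

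**Figure D2:**
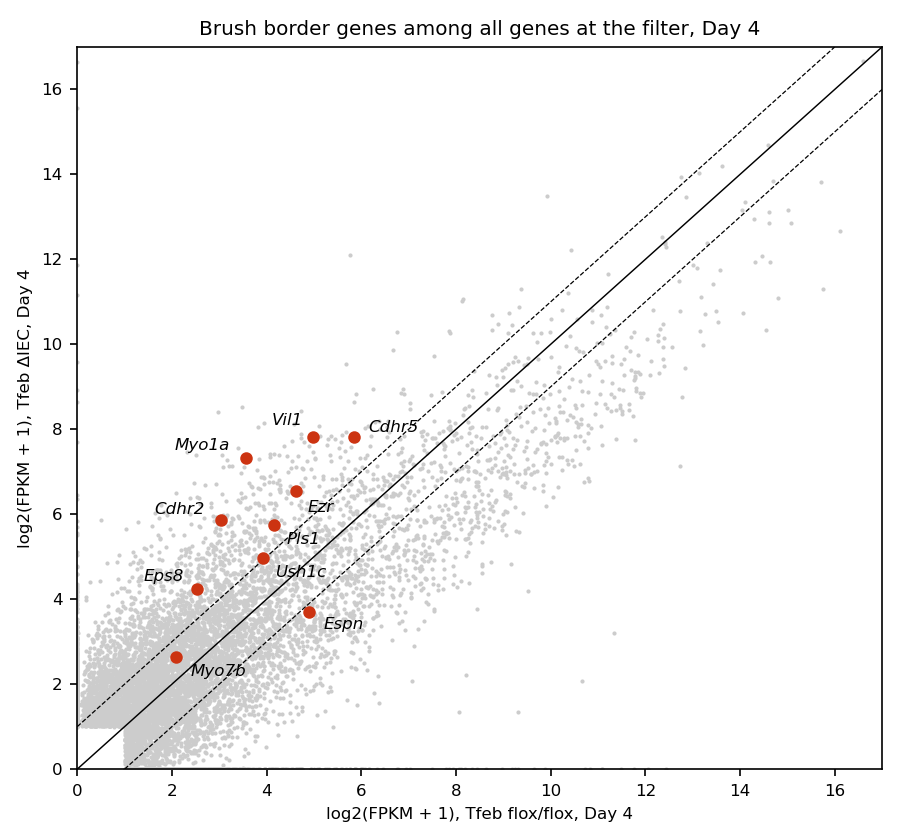
log2(FPKM + 1) on Day 4 in *Tfeb* flox/flox (x axis) and *Tfeb* ΔIEC animals (y axis) for the 9371 genes with at least 1 FPKM in either genotype (grey) and the 10 brush border genes (red), with the line of equality and dashed lines at 2-fold. 8 red points lie above the upper dashed line, *Myo7b* lies between the dashed lines and *Espn* below the lower one, within a cloud that is itself wide.

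Genotype differences on these days went with transcript length over all genes. On Day 4 the shortest genes, of 204 to 501 nt when all genes were split by length into 10 equal bins, had a log2 fold change of -1.83 by their median, and the genes of 2842 to 3492 nt one of 0.65. Median transcript lengths of the 10 brush border genes ran from 1580 nt for *Espn* to 6621 nt for *Myo7b*, against a median of 1910 nt over genes at the filter. The running median over genes of like length was between 0.06 and 0.68 at these genes. After its subtraction, *Myo1a* was at a log2 fold change of 3.17 on Day 4, *Vil1* at 2.19, *Cdhr2* at 2.15, *Cdhr5* at 1.41, *Ezr* at 1.33, *Eps8* at 1.06, *Pls1* at 0.98, *Ush1c* at 0.43, *Myo7b* at 0.42 and *Espn* at -1.27.

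On that scale, 6 genes lay past 2-fold higher on Day 4, beside 20.2% of all genes, and 1 lower, beside 20.4%. On Day 11 it was 5 higher, beside 20.2%, and 1 lower, beside 20.6%, and on Day 0 none higher, beside 11.4%, and 1 lower, beside 11.3%, this being *Pls1* at -1.12. Medians of the 10 genes were 0.22, 1.20 and 1.03 on Day 0, Day 4 and Day 11. The direction was that of the unadjusted values for all genes on Day 4 and Day 11, and on Day 0 it turned for *Cdhr5*, from 0.01 to -0.27, and for *Myo7b*, from 0.29 to -0.03. Centring on the median of all genes also turned *Cdhr5* on Day 0, to -0.05. The part of transcript length in the values was not tested further.

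**Figure D3:**
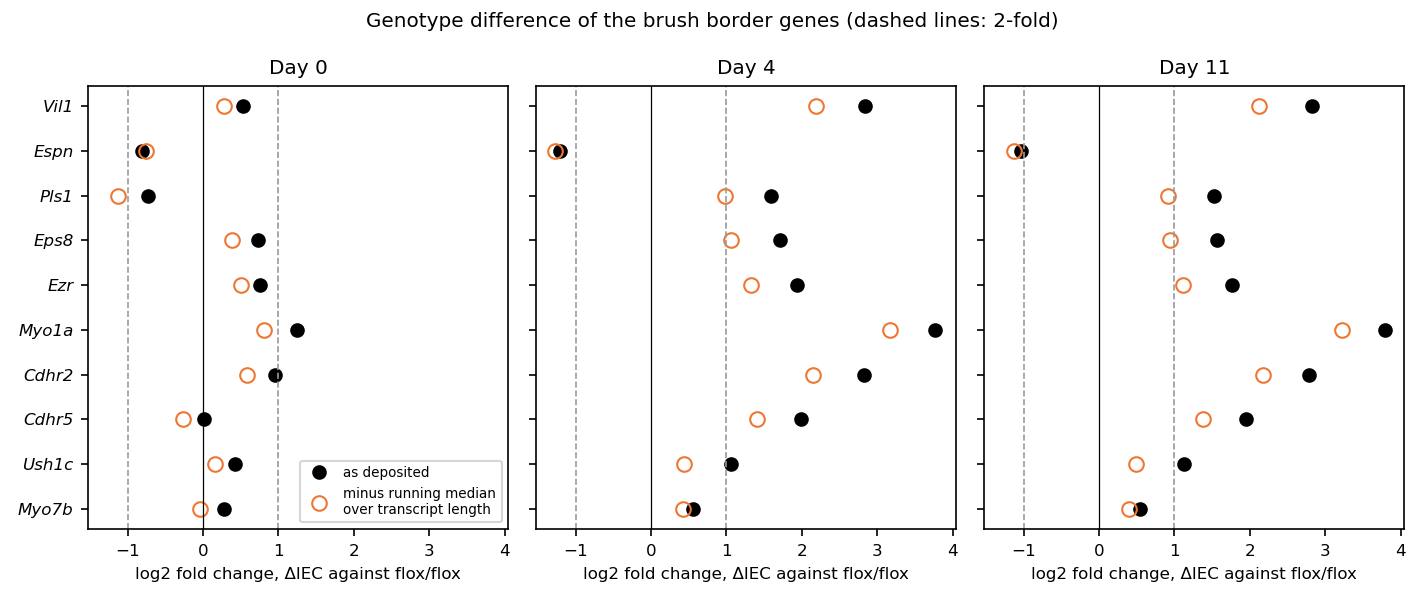
Log2 fold change of FPKM + 1, *Tfeb* ΔIEC against *Tfeb* flox/flox, of the 10 brush border genes on Day 0, Day 4 and Day 11, as deposited (black) and after the length trend was subtracted (orange), with dashed lines at 2-fold. *Myo1a* is highest in each panel, at 3.76 on Day 4 as deposited and 3.17 after subtraction, and *Ush1c* moves from 1.05 to 0.43.

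**Figure D4:**
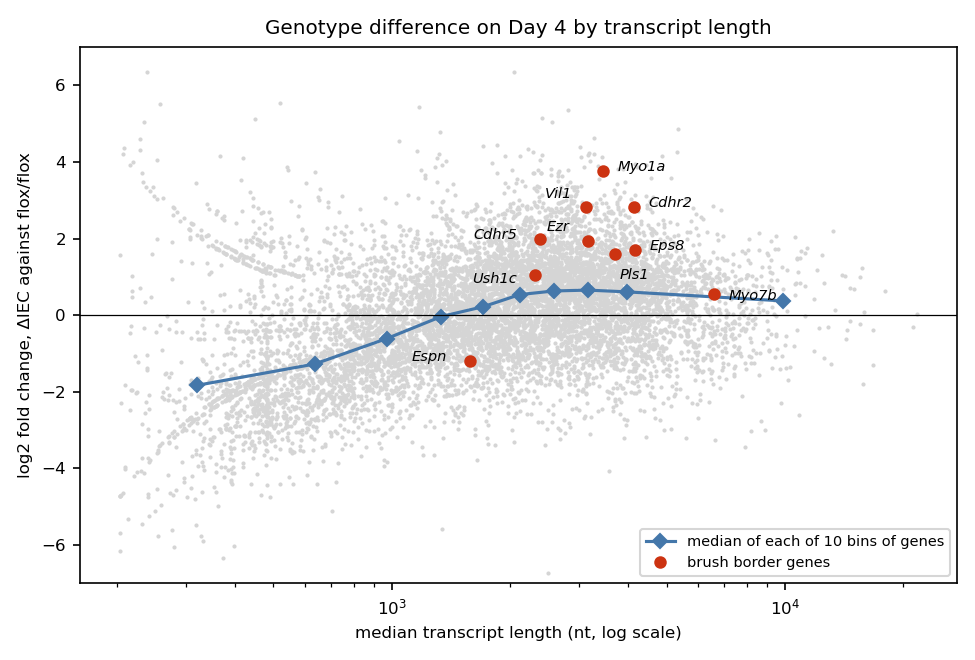
Log2 fold change on Day 4 against median transcript length in nt on a log scale for all genes at the filter (grey), with the median of each of 10 equal bins of genes by length (blue, drawn at the geometric mean of the length limits) and the 10 brush border genes (red); genes beyond the limits of the y axis are not drawn. The blue line climbs from -1.83 at the shortest genes to 0.65, and 9 red points lie above it, *Myo7b* by little, and *Espn* lies below it.

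RefSeq promoter windows, 250 bases before to 50 bases after a start, were at hand for 8 of the 10 genes, 10 windows in all since *Espn* has 3. On either strand, the letters CACGTG, the core bound by TFEB and its relatives, were in 0 of the 10 windows and in 7.15% of 32851 windows of all genes. Letters of factors of intestinal differentiation and of the TATA box were looked for in the same way. CAAAGTCCA, for HNF4, was in 0 of 10 and in 0.475% of all, TTTATTG, for CDX2, in 0 and in 4.60%, and TATAAA, of the TATA box, in 0 and in 13.6%. TTTATGG, also for CDX2, was in 1 window, of *Espn*, and in 2.75% of all, and GTTAATNAT, for HNF1, in 1, of *Cdhr2*, and in 0.801%. A CArG box, a run of A and T between CC and GG that serum response factor binds and that is known from actin cytoskeleton genes, was looked for after the sequences had been read, and was in 1 window, of *Vil1*, and in 1.63% of all. None of these motifs overlapped another in the windows shown. The 250 bases before the start are printed for these 3, since *Vil1* and *Cdhr2* had like differences and *Espn* the opposite one, from RefSeq on GRCm38.p6, 5′ to 3′ on the strand of the gene, with the match in capitals.
Vil1: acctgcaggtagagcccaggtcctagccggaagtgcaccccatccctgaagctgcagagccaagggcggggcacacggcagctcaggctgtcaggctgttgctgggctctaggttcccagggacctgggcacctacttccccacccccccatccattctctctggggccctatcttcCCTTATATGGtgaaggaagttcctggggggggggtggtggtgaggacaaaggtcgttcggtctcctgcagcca
Cdhr2: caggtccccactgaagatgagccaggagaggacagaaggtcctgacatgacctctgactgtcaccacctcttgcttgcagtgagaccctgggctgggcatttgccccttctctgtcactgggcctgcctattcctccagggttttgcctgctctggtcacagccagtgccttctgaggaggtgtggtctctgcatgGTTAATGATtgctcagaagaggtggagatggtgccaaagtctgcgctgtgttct
Espn: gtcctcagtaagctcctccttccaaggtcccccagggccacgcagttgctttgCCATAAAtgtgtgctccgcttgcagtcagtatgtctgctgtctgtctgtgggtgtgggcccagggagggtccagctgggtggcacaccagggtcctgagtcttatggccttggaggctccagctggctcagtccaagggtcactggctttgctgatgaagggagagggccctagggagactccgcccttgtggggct
The *Vil1* window is chr1:74409134-74409383 on the plus strand, with the CArG box 73 to 64 bases before the start. The *Cdhr2* window is chr13:54701213-54701462, plus strand, with the HNF1 letters 54 to 46 bases before the start. The *Espn* window is chr4:152128926-152129175, minus strand, before the start that lies farthest into the gene, with the CDX2 letters on the opposite strand 197 to 191 bases before it. G and C made up 62.8%, 56.0% and 60.8% of the bases. A match is a description of letters, and binding was not measured in these data.

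The genes whose profile over the 6 groups came nearest to that of *Vil1* were sought among 1569 genes with at least 10 FPKM in every group, by the root mean square difference of centred log2(FPKM + 1). They were *Chp1*, a calcineurin-like calcium-binding protein, at 0.03, *Tpm3-rs7* at 0.11, *Ifngr1*, a chain of the interferon gamma receptor, at 0.11, *Ctsa*, the lysosomal cathepsin A, at 0.13, and *Slc26a3*, the chloride and bicarbonate exchanger of the colonic brush border, at 0.14. *Slc26a3* was at 85.8 and 112 FPKM in *Tfeb* flox/flox and *Tfeb* ΔIEC on Day 0 and at 33.3 and 271 FPKM on Day 4. *Tpm3-rs7* is related in sequence to *Tpm3*, so that reads may be split between them and its value is uncertain. Of the brush border genes, *Cdhr5* was at 0.39, *Ezr* at 0.43, *Myo1a* at 0.46, *Pls1* at 0.66, *Ush1c* at 0.71 and *Espn* at 1.66. *Cdhr2* was at 0.13, *Eps8* at 0.52 and *Myo7b* at 0.93. These last were below 10 FPKM in some or all groups, and so not among the genes compared. By rank among the genes compared, *Cdhr5* was the 54th and *Espn* the 951st. These distances rest on 6 combined values from 3 tables and carry no test.

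Other genes of the microvillus and of apical traffic were less uniform. Of 139 listed genes, 104 were at the filter on Day 4. Of these 39, or 37.5%, were past 2-fold higher in *Tfeb* ΔIEC and 15, or 14.4%, past it lower, beside 25.6% and 26.1% of all genes, with 0.55 as the median of their log2 fold changes. On Day 11 it was 40 and 14, beside 26.1% and 25.7% of all genes, with a median of 0.57. On Day 0, 109 were at the filter, with 15 or 13.8% higher and 12 or 11.01% lower, near the 13.5% and 16.1% of all genes, and a median of 0.17. After subtraction of the length trend, 24 were past 2-fold higher and 15 lower on Day 4, beside 20.2% and 20.4% of all genes, with a median of 0.23. The lists below make up these genes, and no list was tested.

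Among 13 relatives of the bundle and tip proteins at the filter on Day 4, 5 were past 2-fold higher and 1 lower, beside 25.6% and 26.1% of all genes, with a median log2 fold change of 0.05. After subtraction of the length trend 1 was higher and 2 were lower, beside 20.2% and 20.4% of all genes, with a median of -0.64. *Scin*, a calcium-dependent actin-severing protein of the villin family, was at 1.53 FPKM in *Tfeb* flox/flox against 20.96 in *Tfeb* ΔIEC. *Gsn*, gelsolin, was at 13.0 and 43.1 FPKM, *Eps8l2* at 6.36 and 20.8, and *Baiap2l1*, a membrane-bending partner of EPS8, at 10.4 and 24.5. Of these 4, *Scin* alone stayed past 2-fold after length subtraction, at a log2 fold change of 2.41. *Eps8l3*, by contrast, was at 121 and 125 FPKM. Of the 4 genes of ezrin relatives, scaffolds and kinases at the filter, 1 was higher and 1 lower, near the shares of all genes. With length subtracted, 0 were higher and 2 lower, beside 20.2% and 20.4%. *Slc9a3r1*, the scaffold EBP50 that binds ezrin, was at 30.6 and 72.4 FPKM on Day 4 and at 39.7 and 40.4 FPKM on Day 0. Its log2 fold change of 1.22 on Day 4 became 0.81 after length subtraction.

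In the adhesion complex, 3 partners were at the filter on Day 4, 1 higher and 1 lower, beside 25.6% and 26.1% of all genes. With length subtracted, 1 was higher and 0 were lower, beside 20.2% and 20.4%. *Tmigd1*, an adhesion molecule of the brush border, was at 3.94 FPKM in *Tfeb* flox/flox against 22.7 in *Tfeb* ΔIEC. *Calml4*, the light chain of myosin 7b, had 416 and 154 FPKM on Day 4 and 252 and 109 FPKM on Day 0. Its transcripts are short, with a median of 704.5 nt, and its log2 fold changes of -1.42 on Day 4 and -1.21 on Day 0 became -0.14 and -0.52 after length subtraction, inside 2-fold. Of 17 myosins and light chains, 3 were past 2-fold higher and 4 lower, before and after length subtraction, near the shares of all genes (25.6% and 26.1% before, 20.2% and 20.4% after), with medians of -0.29 and -0.28. *Myh14*, a non-muscle myosin heavy chain, was at 110 and 21.9 FPKM, and *Myl6*, a myosin light chain, at 834 and 184. After length subtraction *Myh14* was at a log2 fold change of -2.42, and *Myl6*, with short transcripts, came inside 2-fold at -0.92. *Myo1d*, at 10.5 and 34.9 FPKM, was on the side of *Myo1a*.

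Of 18 genes of apical trafficking, 7 were higher and 1 lower on Day 4, beside 25.6% and 26.1% of all genes. With length subtracted, 5 were higher and 2 lower, beside 20.2% and 20.4%. The medians were 0.55 and 0.44. *Cdc42*, a GTPase of cell polarity, was at 30.5 and 176 FPKM, *Rab8a*, which directs vesicles to the apical membrane, at 6.30 and 34.5, and *Mal2*, of transcytosis, at 3.77 and 20.5, while *Vamp8*, a vesicle fusion protein, was at 229 and 58.3 FPKM. Of 20 hydrolases and transporters of the brush border, 10 were higher and 1 lower, beside 25.6% and 26.1%, with a median of 0.95. After length subtraction 4 were higher, near the 20.2% of all genes, and 2 lower, beside 20.4%, with a median of 0.55. *Mep1a*, a subunit of the protease meprin, was at 4.95 and 52.2 FPKM, *Slc26a3* as given above, the sodium and proton exchanger *Slc9a2* at 2.02 and 20.5, and the sodium and glucose cotransporter *Slc5a1* at 2.76 and 13.8. Of 29 genes of actin and its regulators, 12 were higher and 6 lower, beside 25.6% and 26.1% of all genes. With length subtracted, 10 were higher and 3 lower, beside 20.2% and 20.4%. The medians were 0.80 and 0.39. *Capza2*, which caps actin filaments, was at 4.93 and 81.9 FPKM, *Actr3*, of the ARP2/3 complex, at 5.53 and 42.6, *Tpm3*, a tropomyosin, at 9.53 and 61.3, and *Dstn*, which severs filaments, at 232 and 1231.

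Markers of colonocytes, the absorptive cells that bear the brush border, lay on both sides. Of 14, 7 were past 2-fold higher and 3 lower in *Tfeb* ΔIEC on Day 4, beside 25.6% and 26.1% of all genes. With length subtracted, 6 were higher and 2 lower, beside 20.2% and 20.4%. The medians were 1.06 and 0.65. On Day 0, 0 were higher and 4 lower, beside 13.5% and 16.1%, with a median of -0.50. *Krt20*, a keratin of mature surface cells, was at 101 and 931 FPKM on Day 4, and the secreted peptide *Guca2a* at 33249 and 9202, a log2 fold change of -1.85 that became -0.59 after length subtraction. The other markers past 2-fold lower stayed past it, *Guca2b* at -2.72 before and -1.44 after, and *Saa1* at -2.54 and -1.26. Of 10 general epithelial markers, 2 were higher and 2 lower on Day 4, near the shares of all genes, with a median of 0.12. The part of the colonocyte, epithelial and immune markers in the values of the brush border genes was not tested.

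**Figure D5:**
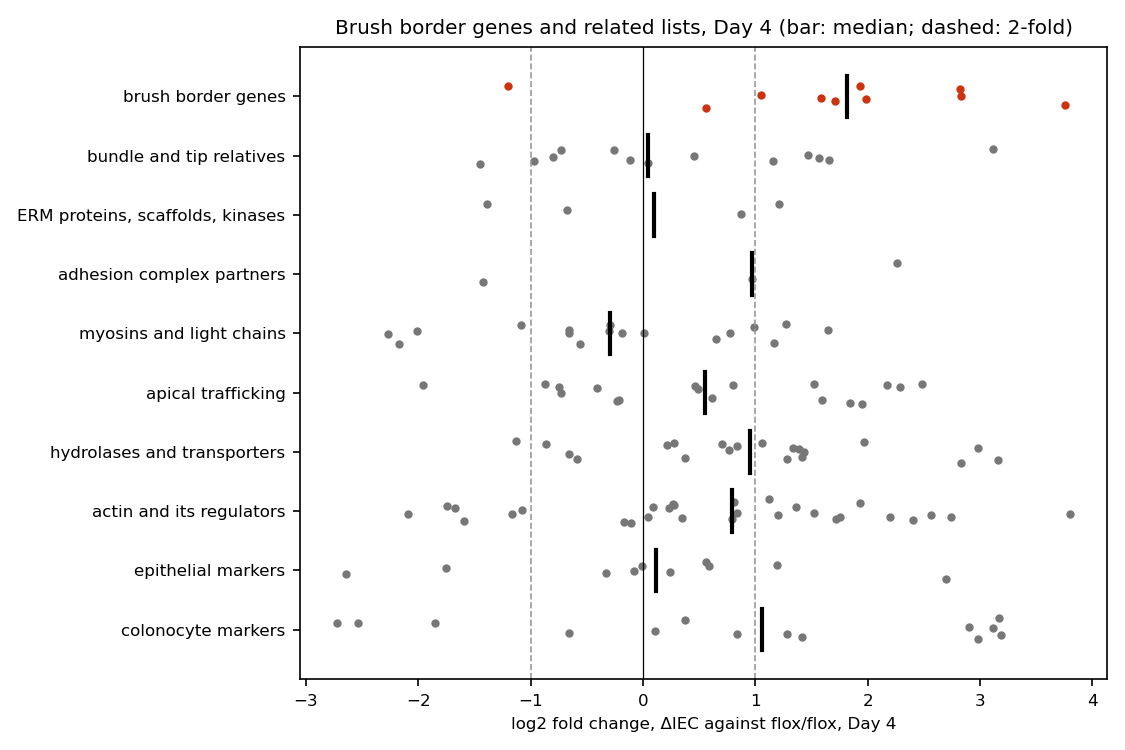
Log2 fold change on Day 4 of each gene at the filter in the brush border list (red, 10 genes), 7 lists of related genes and 2 lists of marker genes (grey), with a black bar at the median of each list and dashed lines at 2-fold. The brush border row has its median at 1.82, with *Espn* as the 1 point past 2-fold on the lower side, and the other lists have medians from -0.29 for the myosins to 1.06 for the colonocyte markers, with genes on both sides of 0.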

How the data were processed

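The authors prepared full-length cDNA from 12 samples, sequenced it in paired ends on a MiSeq, used TopHat2 2.0.14 with Bowtie for mapping to mm10, and ran Cuffdiff 2.1.1 between the genotypes, day by day (versions per the submitters' processing notes). The 3 deposited tables hold 1 FPKM per gene and genotype, made from both animals and normalised within the day. They also hold the authors' fold change, test statistic, p-value, q-value and call, which were not used.

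Groups came from the sample labels. Log2 fold changes used a pseudocount of 1 FPKM, a filter of 1 FPKM in either genotype, and a mark at 2-fold, with no test, since there are no values per animal. Transcript length is the median over the basic GENCODE M21 transcripts of a gene. Genes with a length below 200 nt were left out of the length subtraction, and the running median spans 301 genes. The 10 members and all lists were chosen with earlier results of these data known. From the other lists, at most 4 genes per list were named, those with the largest change among genes of at least 10 FPKM, together with the 5 genes nearest to *Vil1*. *Eps8l3*, *Usp37*, *Med6*, *Abcf3* and the marker genes were named after their values were seen. For 1 gene chosen in this way no value is given here. Computations used Python 3.11.15, numpy 2.4.6, pandas 2.3.3 and matplotlib 3.10.9 and were tested on simulated data. Alternatives were other pseudocounts, filters, scalings, length corrections and folds.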

Additional observations from a re-analysis of the deposited data

Results flagged for a closer look

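*Pls1*, which encodes plastin 1, was flagged because its genotype difference pointed opposite ways on different days. Its log2 fold change, *Tfeb* ΔIEC against *Tfeb* flox/flox, was -0.73 before treatment, 1.59 on Day 4 and 1.52 on Day 11. With 1 combined value per genotype and day, the difference between the days was not tested.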

How the results depend on the processing

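No paired analysis was possible because each genotype has 1 combined value per day, and for the same reason leaving out single animals was not run. No setting turned a gene past 2-fold to the other side. For the 10 genes on each day, 210 of 237 values under the other settings kept their sign and their side of 2-fold, and 27 did not. *Espn* came inside 2-fold with a pseudocount of 5, at -0.997 on Day 4 and -0.88 on Day 11, and with division by the sum of values, at -0.41 and -0.25. *Ush1c* came inside it after length subtraction, at 0.43 and 0.49, with a pseudocount of 5, at 0.889 and 0.956, and on Day 4 with centring, at 0.998. After length subtraction, so did *Pls1*, at 0.98 on Day 4 and 0.91 on Day 11, *Eps8* on Day 11, at 0.94, and *Myo1a* on Day 0, at 0.81, while *Pls1* on Day 0 went past it, at -1.12. Division by the sum put *Myo7b* past it, at 1.24 and 1.23. The median log2 fold change of the 10 genes on Day 4, 1.82, was 1.93 with a pseudocount of 0.1, 1.59 with one of 5, 1.93 with a filter of 10 FPKM, 2.60 after division by the sum, and 1.20 after subtraction of the running median over median or over longest transcript length, the last chosen after seeing the data. On Day 11, 1.67 became 1.77, 1.49, 2.45, 1.03 and 1.04 under the same settings without the filter. On Day 0, 0.48 became 0.22 and 0.20 with the length corrections. The number of the 10 genes past the mark on Day 0, 1, was 2, both lower (11.8% of all genes), with the longest transcript, 6 at 1.5-fold (4 higher beside 27.3% of all genes, 2 lower beside 25.6%) and 0 at 3-fold. On Day 11 it was 5 at 3-fold, all higher (12.7% of all genes), in place of 9. Depth is unknown, so the precision of low values such as those of *Myo7b* is unknown too.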

Other observations

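Markers of other epithelial cells are given as values for Day 4, with no test. Of 8 goblet cell markers, 2 were past 2-fold higher and 4 lower in *Tfeb* ΔIEC, beside 25.6% and 26.1% of all genes. After subtraction of the length trend 2 were higher and 2 lower, beside 20.2% and 20.4%. *Muc2*, the main mucin of the colon, was at 645 FPKM in *Tfeb* flox/flox against 1894 in *Tfeb* ΔIEC, and *Tff3*, a short secreted peptide gene, at 28759 and 2166. Length subtraction put *Muc2* at a log2 fold change of 2.81 and *Tff3* at -2.16. Of 7 enteroendocrine markers at the filter, 0 were higher and 3 lower, beside 25.6% and 26.1% of all genes. With length subtracted, 1 was higher and 2 were lower, near the 20.2% and 20.4% of all genes. The short peptide genes *Sct* and *Pyy* were at 373 and 26.5 FPKM and at 209 and 17.8 FPKM, while the granule protein gene *Chga* was at 17.8 and 17.9. After length subtraction *Sct* was at a log2 fold change of -2.21 and *Pyy* at -2.11. The hormone gene *Gcg* lay on the other side, at 16.8 and 33.4 FPKM, with 0.95 before length subtraction and 1.55 after it. Markers of crypt base and dividing cells were low in both genotypes, with sums of 16.5 and 9.05 FPKM over 10 genes. Of 10 markers of small-intestinal enterocytes, *Fabp1*, *Apoa4*, *Lct* and *Gata4* were listed at 0 in both genotypes on each day. *Fabp2*, a fatty acid binding protein, was at 1882 and 891 FPKM on Day 0 and at 852 and 799 on Day 4, *Fabp6*, its relative for bile acids, at 24.0 and 2.65 on Day 4, and *Rbp2*, a retinol binding protein, at 1.24 and 7.56. On Day 4, 5 of the 10 were at the filter, 2 of them higher and 2 lower, beside 25.6% and 26.1% of all genes. With length subtracted, 1 was higher and 1 lower, beside 20.2% and 20.4%. The genes named here were chosen after their values were seen.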
